A study of Mus musculus with 31 samples.

Results

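De novo lipogenesis is the making of fatty acids from carbohydrate carbon, and 7 genes of it are described here in the mouse colon: Acly, Me1, Acaca, Fasn, Srebf1, Thrsp and Pnpla3. They were chosen by function, with earlier results of these data known, and each was read from 1 probe set, the one with a single gene symbol and the highest mean over 31 arrays, out of 18820 genes with such a probe set. Tests covered the 12795 genes with an intensity of 20 or more on 3 arrays, and 7 of 7 members were among them. Thrsp passed through 4 arrays, each from a mouse group on low-fat diet, and lay below that minimum on the other 27.

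In the pathway, ATP citrate lyase (Acly) splits citrate in the cytosol into acetyl-CoA, and malic enzyme (Me1) makes NADPH. Acetyl-CoA carboxylase (Acaca) turns acetyl-CoA into malonyl-CoA, the committed step, and fatty acid synthase (Fasn) builds palmitate from both with NADPH. The transcription factor SREBP-1, encoded by Srebf1, activates the enzyme genes and is known to be held back by dietary polyunsaturated fat. Thrsp (Spot 14) is a small protein that promotes lipogenesis in liver and fat, and Pnpla3 is a lipase of lipid droplets whose transcription SREBP-1 drives in liver. In the colon the epithelium meets short-chain fatty acids from bacterial fermentation, which can supply acetyl-CoA or propionyl-CoA.

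RNA came from the scraped colon lining of 13-week-old male C57Bl/6J mice. For 2 weeks before infusion they were fed semi-synthetic diets made with palm oil, in which fat gave 10% (low-fat, LFD) or 45% (high-fat, HFD) of the energy. Under sedation, 80 µL of saline (control), or saline with 100 mM sodium acetate, sodium propionate or sodium butyrate, was infused into the rectum on 6 consecutive days, and the colon was taken 4 h after the last infusion. The fluid was released 3 cm inside the rectum, and fat around the colon was removed by hand. The 8 groups are named by infusion and diet (saline LFD to butyrate HFD), with 4 arrays each (n = 4) and 3 for acetate LFD (n = 3). The labels speak of 6 mice in each group without tying an array to a mouse, so p-values measure the spread between these samples, part of which may be technical. Carbohydrate differs between the diets along with fat, and their parts cannot be told apart. In such bulk RNA, fewer cells of a type and less RNA per cell cannot be told apart either.

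Values are log2 levels made by RMA, with array medians of 5.14 to 5.19 and correlations of 0.987 to 0.994 between arrays of a group. Differences are log2 differences ± the standard error of a limma fit over the 8 groups. Adjusted p-values are limma's, Benjamini-Hochberg adjusted over 12795 genes, with a threshold of 0.05. Certain arrays stood apart in marker transcripts. The 10 markers of colonic epithelium averaged 11.5 to 11.8 on every array. The mean of 7 adipocyte markers (Adipoq, Plin1, Plin4, Cidec, Retn, Fabp4, Car3) was highest on butyrate LFD 2 (6.87), saline LFD 1 (6.75) and saline LFD 2 (6.39), and 4.57 to 6.25 on the others; Lep was below the filter. The same 3 arrays were the lowest in 6 distal colon markers (5.81 to 5.92). Small-intestinal markers were high on saline HFD 2, propionate LFD 2 and saline LFD 2 and 3 (7.94 to 8.37), and smooth muscle markers on saline HFD 1 and 2. No marker gene of the 6 lists passed the threshold for diet.

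Promoter sequence is shown for 5 members, the 4 whose levels were most closely linked across arrays (Fasn, Acaca, Acly, Srebf1) and Thrsp, which was closest to adipocyte genes. Each line is the 250 bases directly upstream of a RefSeq transcript start in GRCm38.p6, read along the gene's strand, which is the plus strand for Acaca and the minus strand for the others. Capitals mark a CCAAT box (the letters bound by NF-Y) or a GC box (GGGCGG, bound by Sp1), on either strand. The windows are Fasn chr11:120824548-120824797, Acaca chr11:84195188-84195437, Acly chr11:100528001-100528250, Srebf1 chr11:60210472-60210721 (the last of its 3 listed starts) and Thrsp chr7:97417551-97417800.
Fasn: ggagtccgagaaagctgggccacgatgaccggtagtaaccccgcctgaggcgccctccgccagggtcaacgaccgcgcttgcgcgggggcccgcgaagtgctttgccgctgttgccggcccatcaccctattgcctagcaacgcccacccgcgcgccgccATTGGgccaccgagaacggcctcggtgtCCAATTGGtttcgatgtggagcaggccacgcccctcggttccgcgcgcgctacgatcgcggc
Acaca: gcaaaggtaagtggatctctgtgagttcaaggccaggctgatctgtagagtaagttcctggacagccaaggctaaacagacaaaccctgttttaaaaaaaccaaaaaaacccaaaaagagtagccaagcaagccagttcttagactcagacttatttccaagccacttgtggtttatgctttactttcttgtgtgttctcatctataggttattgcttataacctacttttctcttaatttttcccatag
Acly: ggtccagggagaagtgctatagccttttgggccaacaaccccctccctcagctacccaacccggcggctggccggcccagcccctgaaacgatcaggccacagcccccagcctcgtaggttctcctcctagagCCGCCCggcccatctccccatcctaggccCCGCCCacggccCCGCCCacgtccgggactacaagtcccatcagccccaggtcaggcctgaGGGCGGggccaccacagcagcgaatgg
Srebf1: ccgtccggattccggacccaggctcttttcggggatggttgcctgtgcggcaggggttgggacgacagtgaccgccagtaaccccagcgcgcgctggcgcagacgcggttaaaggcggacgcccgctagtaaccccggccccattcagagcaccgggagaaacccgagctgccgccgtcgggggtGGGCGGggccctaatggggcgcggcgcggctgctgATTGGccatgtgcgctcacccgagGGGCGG
Thrsp: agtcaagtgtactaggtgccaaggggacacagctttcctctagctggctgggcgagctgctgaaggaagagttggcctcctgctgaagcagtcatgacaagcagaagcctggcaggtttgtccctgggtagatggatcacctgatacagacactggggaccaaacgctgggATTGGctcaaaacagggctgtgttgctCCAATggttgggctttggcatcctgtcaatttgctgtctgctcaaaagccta
The Fasn window holds 3 CCAAT matches, which begin 90, 62 and 59 bases before the start, and the last pair overlap in a palindrome. The Thrsp window holds 2, at 79 and 52 bases, and the Srebf1 window 1 at 30 bases with 2 GC boxes. The Acly window has 4 GC boxes, and its CCAAT match lies past the start. The Acaca window holds none of the letters searched. It belongs to a start inside the annotated gene, far downstream of the gene's 5' end, so it does not describe a promoter at that end. The same holds for the Srebf1 window, which also lies inside its annotated gene. The Fasn window lies inside its gene as well, but close to the 5' end. RefSeq lists 10 promoters for the 7 genes, and in windows of 250 bases before to 50 after the start, CCAAT occurred in 7 of 10 and GGGCGG in 5 of 10. Of 32851 mouse promoters in the same table, 37.4% and 35.7% held these letters on either strand. A sterol regulatory element core spelled TCACNCCAC was found in 0 of 10 member promoters and 1.24% of all, and the E-box CACGTG in 0 of 10 and 7.15%. An exact match is a description of these letters in these windows and no measure of binding.

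The first comparison asked what HFD did to the pathway, averaged over the 4 infusions. Acaca, Fasn, Me1 and Srebf1 fell on HFD, 4 of the 7 genes, where 1.16% of all tested genes fell and 2.7% passed in either direction. Acly, Thrsp and Pnpla3 did not pass. The 7 differences lay below 0, with a median of -0.27 against 0.0051 over all genes. Among them is that of Thrsp, which entered the tests only through LFD arrays. In the same fit, markers of other tissues lay mostly to one side of 0, with 0 calls. The median difference was -0.40 for small-intestinal markers (10 of 11 below 0), -0.24 for adipocyte markers (6 of 7 below 0), 0.32 for distal colon markers (5 of 6 above 0) and 0.12 for smooth muscle markers (8 of 8 above 0). For immune cell markers the median was 0.099 (5 of 5 above 0). The part of the small-intestinal, distal colon, smooth muscle and immune cell markers in the members' differences was not tested beyond leaving out arrays.

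Substrate supply came first in the pathway. For Acly, the source of cytosolic acetyl-CoA, the level ran from 9.25 over a median of 9.65 to 9.83 in 15 LFD arrays, and from 9.12 over 9.44 to 9.77 in 16 HFD arrays. The ranges overlapped almost fully, with 3 LFD arrays above and 1 HFD array below the other diet. The difference was -0.15 ± 0.0563 (adjusted p = 0.109), and 13 of 16 HFD arrays lay below the LFD mean of their infusion. Array weights, which give noisy arrays less say, put Acly past the threshold at -0.19 (limma's adjusted p = 0.0215). That was 1 of 12 other settings (adjusted p up to 0.182), and Acly passed in 1 of 31 fits without 1 array (adjusted p up to 0.2155).

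Me1, a source of NADPH, ran from 5.73 over a median of 5.99 to 6.80 on LFD and from 5.25 over 5.57 to 6.15 on HFD. As many as 10 of 16 HFD arrays lay below every LFD array, while 4 LFD arrays lay above every HFD array. Me1 fell by 26.9% (-0.45 ± 0.112, adjusted p = 0.0278, lower in 14 of 16 HFD arrays). A second Me1 probe set gave -0.49 (adjusted p = 0.0347), and the pair correlated at r = 0.985 over the arrays. The Me1 call depended on single arrays: it was lost without acetate HFD 1, acetate LFD 3, butyrate HFD 3, propionate HFD 3, saline HFD 1, saline HFD 3 or saline LFD 2 (adjusted p up to 0.0613). Without saline LFD 1 and 2 the difference was -0.37 (adjusted p = 0.0968), and without saline HFD 1 and 2, the arrays high in smooth muscle markers, -0.41 (0.0798).

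For Acaca, the enzyme of the committed step, LFD arrays ran from 8.32 over a median of 8.63 to 8.80 and HFD arrays from 7.98 over 8.26 to 8.61. Here 8 of 15 LFD arrays lay above every HFD array and 10 of 16 HFD arrays below every LFD array, though the middle of the ranges overlapped. Acaca fell by 17.2% (-0.27 ± 0.0534, adjusted p = 0.0161, lower in 14 of 16). Its second probe set gave -0.29 (adjusted p = 0.0191), with r = 0.803 between the pair.

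Fasn, the synthase itself, ran from 9.42 over a median of 9.87 to 10.1 on LFD and from 9.15 over 9.37 to 9.92 on HFD. Lower values were on HFD, where 9 of 16 arrays lay below every LFD array, and 5 LFD arrays lay above every HFD array. Fasn fell by 21.8% (-0.35 ± 0.0774, adjusted p = 0.0199, lower in 14 of 16). The calls of Fasn and Acaca held in each of 31 fits without 1 array. Both missed the threshold without saline LFD 1 and 2 (adjusted p = 0.0571 for Fasn at -0.35 and 0.0534 for Acaca at -0.25).

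Among the regulators, Srebf1 ran from 7.53 over a median of 8.18 to 8.33 on LFD and from 7.45 over 7.74 to 8.18 on HFD. Of the LFD arrays 8 of 15 lay above every HFD array, whereas 2 HFD arrays lay below every LFD array. Srebf1 fell by 16.9% (-0.27 ± 0.0747, adjusted p = 0.0499, lower in 12 of 16). This call stands at the threshold and was lost in 22 of 31 fits without 1 array (adjusted p up to 0.102). It held without acetate LFD 1, butyrate HFD 1 or 2, butyrate LFD 4, propionate HFD 1, saline HFD 2 or 4, or saline LFD 1 or 3.

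Thrsp ran from 3.56 over a median of 4.04 to 5.67 on LFD and from 3.59 over 3.77 to 4.28 on HFD. The LFD values spread upward through saline LFD 1 (5.67), saline LFD 2 (5.13), butyrate LFD 2 (5.05) and acetate LFD 3 (4.39), and the remaining LFD arrays overlapped with HFD. The difference was -0.42 ± 0.138 (adjusted p = 0.0791), with 15 of 16 HFD arrays below the LFD mean of their infusion. Because Thrsp passed the filter only through LFD arrays, this difference is a description. Without saline LFD 1 and 2 and butyrate LFD 2, the arrays highest in adipocyte markers, it was -0.18 (adjusted p = 0.242). Thrsp passed in 2 of 31 fits without 1 array (adjusted p down to 0.0259) and in 1 of 11 other settings (0.0229). Mid1ip1, which encodes a relative of Thrsp that activates acetyl-CoA carboxylase, fell (-0.42 ± 0.0842, adjusted p = 0.0161).

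Pnpla3, the lipid droplet lipase, ran from 4.73 over a median of 5.04 to 5.41 on LFD and from 4.63 over 4.93 to 5.46 on HFD. Neither diet stood apart, and 1 HFD array was the highest of all. The difference was -0.066 (95% interval -0.22 to 0.086, adjusted p = 0.638).

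**Figure D1:**
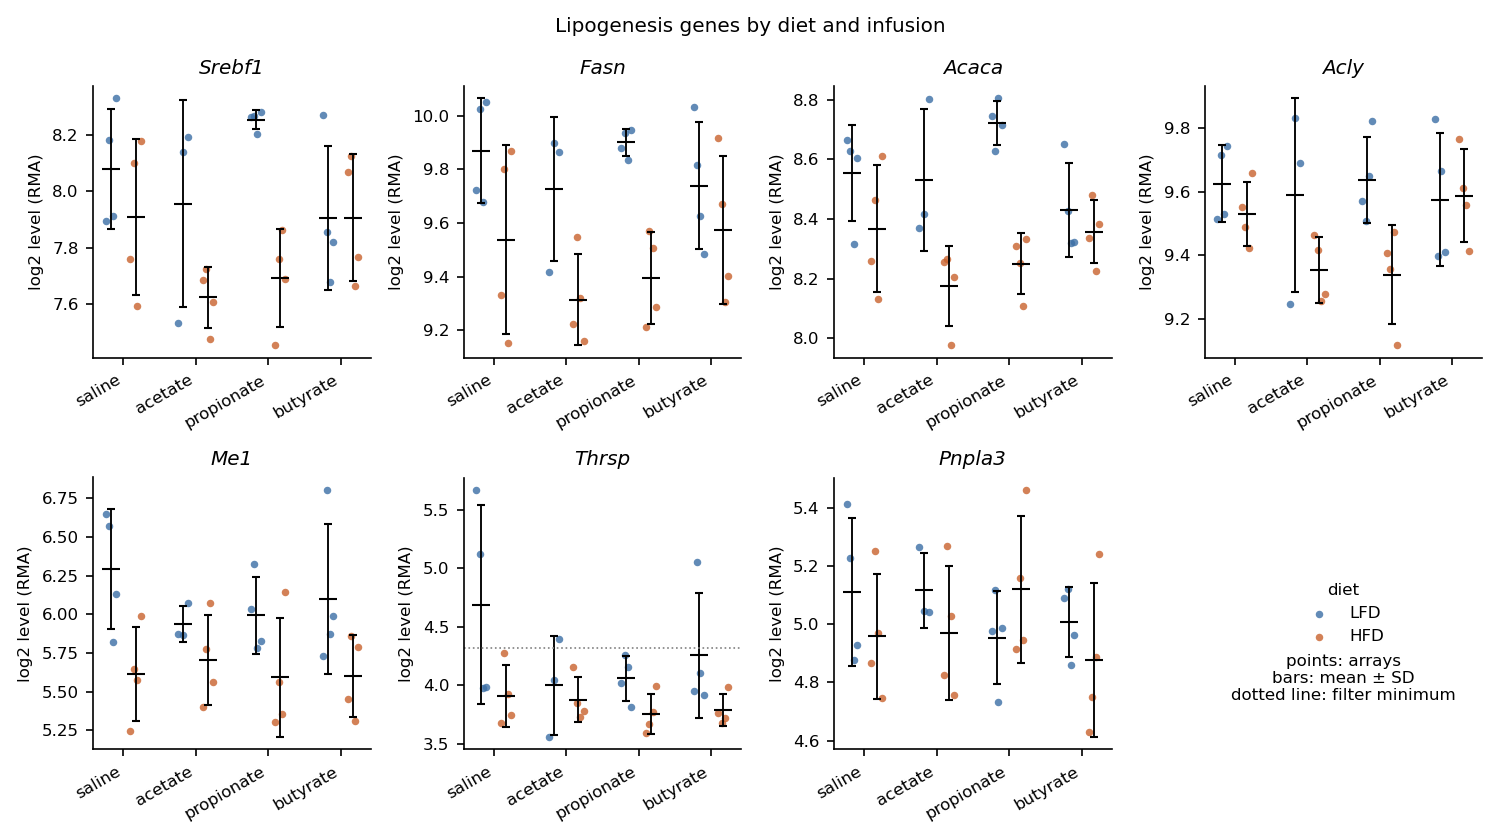
Log2 level (RMA) of the 7 genes on each array (points), by infusion (x axis) and diet (LFD blue, HFD orange), with mean ± SD per group; the dotted line in the Thrsp panel is the filter minimum. Propionate LFD arrays of Srebf1, Fasn and Acaca lie above all propionate HFD arrays, while most Thrsp points lie below the filter minimum.

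The design also asks how diet differed under each infusion. Under propionate Srebf1, Acaca and Fasn fell, 3 of 7 genes, where 4.82% of all tested genes fell and 6.87% passed. The LFD and HFD groups did not overlap for these 3 and for Acly, 4 of 7 genes, against 8.77% of all genes with HFD lower. Srebf1 was 8.26, 8.27, 8.20 and 8.28 on propionate LFD and 7.45, 7.76, 7.86 and 7.69 on propionate HFD. The LFD arrays of this group lay closer together than those of any other Srebf1 group, and each was above the highest HFD array. Srebf1 fell by 32.3% (-0.56 ± 0.146, adjusted p = 0.0260).

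Acaca was 8.75, 8.63, 8.80 and 8.71 on propionate LFD and 8.31, 8.25, 8.11 and 8.33 on propionate HFD, without overlap. It fell by 27.9% (-0.47 ± 0.105, adjusted p = 0.0156). Fasn was 9.88, 9.94, 9.84 and 9.95 on propionate LFD and 9.21, 9.57, 9.51 and 9.29 on propionate HFD. Every LFD array was again above every HFD array, and Fasn fell by 29.6% (-0.51 ± 0.152, adjusted p = 0.0426). Acly stood at -0.30 ± 0.110 (adjusted p = 0.0918), with 9.57, 9.51, 9.65 and 9.82 on LFD against 9.41, 9.36, 9.47 and 9.12 on HFD. The other members under propionate were Me1 at -0.40, Thrsp at -0.31 and Pnpla3 at 0.17 (adjusted p = 0.262, 0.518 and 0.512).

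These calls rest on few arrays. Without propionate HFD 2, propionate HFD 3 or propionate LFD 3, 0 of the 7 passed under propionate, and without propionate LFD 4 Acaca alone passed. The Fasn call was lost when any 1 of the 8 propionate arrays was left out (adjusted p up to 0.101), with differences of -0.57 to -0.45. Without the 4 arrays high in small-intestinal markers, which include propionate LFD 2, the Fasn difference was -0.49 (adjusted p = 0.0757).

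Under saline 0 of 7 genes passed in limma, and 0% of all genes did. At an unadjusted p under 0.05 there were 3 of 7, Fasn, Me1 and Thrsp, against 7.28% of all genes. Thrsp entered the tests only through LFD arrays, so its difference is a description and no support for a diet effect. Me1 was 6.65, 6.57, 5.82 and 6.13 on saline LFD and 5.25, 5.65, 5.58 and 5.99 on saline HFD. The groups overlapped through saline LFD 3 and saline HFD 4, and the difference was -0.68 ± 0.219 (adjusted p = 0.667). Thrsp was 5.67, 5.13, 3.98 and 3.99 on saline LFD and 3.68, 4.28, 3.93 and 3.75 on saline HFD. The top pair are saline LFD 1 and 2, the saline arrays highest in adipocyte markers, and the other LFD arrays lay within the HFD range; the difference was -0.78 ± 0.271 (adjusted p = 0.667).

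Under acetate 0 of 7 genes passed, and 0% of all genes. Acaca was 8.37, 8.42 and 8.80 on acetate LFD and 8.25, 8.27, 7.98 and 8.21 on acetate HFD. It was the member whose groups did not overlap, against 4.18% of all genes with HFD lower, at -0.35 ± 0.113 (adjusted p = 0.629). Fasn (-0.41) and Srebf1 (-0.33) reached an unadjusted p under 0.05 as well, so 3 of 7 did, against 7.71% of all genes.

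Under butyrate 0 of 7 genes passed, and 0% of all genes. Srebf1 was 8.27, 7.85, 7.68 and 7.82 on butyrate LFD and 8.07, 8.12, 7.66 and 7.77 on butyrate HFD. The groups lay on top of each other, with a difference of 0.0005 (95% interval -0.30 to 0.30). Acly (0.012, -0.21 to 0.24), Acaca (-0.074, -0.29 to 0.14) and Fasn (-0.17, -0.48 to 0.15) had intervals that included 0. Me1 stood at -0.50 ± 0.219, 1 of 7 at an unadjusted p under 0.05 against 3.67% of all genes.

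**Figure D2:**
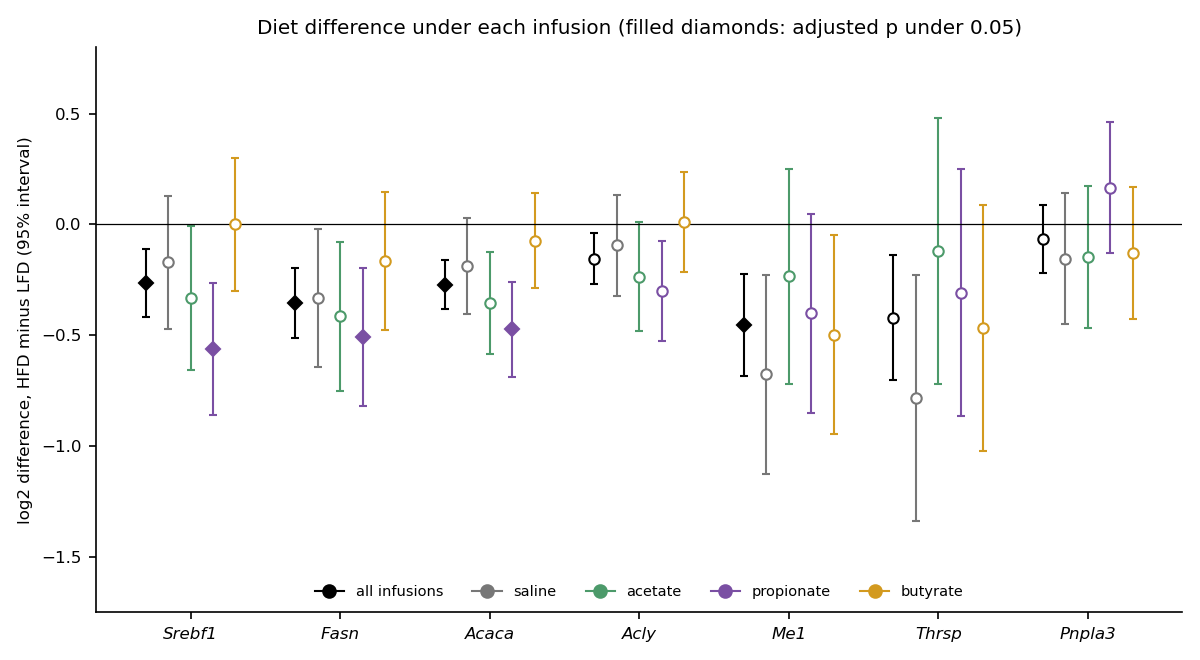
Log2 difference HFD minus LFD (y axis) of each gene over all infusions and under each infusion, with 95% intervals of the limma fit; filled diamonds passed the threshold. Srebf1, Acaca and Fasn are lowest under propionate (-0.56, -0.47 and -0.51) and nearest 0 under butyrate (0.0005, -0.074 and -0.17), while Me1 lies between -0.68 and -0.23 throughout.

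Whether the diet difference varied among the infusions was tested itself, which is the question in the study's title. In an F test of diet by infusion 0 of 7 genes passed, and 0% of all genes did. At an unadjusted p under 0.05 there were 0 of 7, against 9.2% of all genes. Acaca (adjusted p = 0.563 in limma) and Srebf1 (adjusted p = 0.576) came nearest. The difference between the diet effects under butyrate and propionate was added after the values were seen. It was 0.56 ± 0.207 for Srebf1 and 0.40 ± 0.148 for Acaca (adjusted p = 0.267 for each), 0.31 ± 0.156 for Acly (0.373) and 0.34 ± 0.215 for Fasn (0.477). With 13.8% of all genes at an unadjusted p under 0.05 there, these limma tests do not show that the diet effect differed between the acids.

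Each acid was then set against saline on the same diet. In limma 0 of 7 genes passed in each of the 6 comparisons, in which 0% of all genes passed. The acids of a diet share its saline arrays. On LFD, propionate gave Srebf1 0.17 (95% interval -0.13 to 0.47) and Acaca 0.17 (-0.046 to 0.38). For acetate on HFD the values were Srebf1 -0.29 (-0.58 to 0.015), Fasn -0.22 (-0.54 to 0.086), Acaca -0.19 (-0.41 to 0.023) and Acly -0.18 (-0.40 to 0.049). Butyrate on HFD gave values nearer 0, Srebf1 -0.0029 (-0.30 to 0.30) and Acaca -0.010 (-0.22 to 0.20).

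Thrsp alone reached an unadjusted p under 0.05 against saline. This gene passed the filter only through LFD arrays, saline LFD 1 and 2 among them, so its differences here are a description. It stood at -0.69 ± 0.293 for acetate on LFD (limma's adjusted p = 1.00) and at -0.63 ± 0.271 for propionate on LFD (adjusted p = 0.972). That made 1 of 7 genes in each, against 1.51% and 3.81% of all genes. In the others it was 0 of 7, against 2.8% (butyrate LFD), 2.51% (acetate HFD), 11.7% (propionate HFD) and 4.01% (butyrate HFD). Both use saline LFD 1 and 2, where Thrsp and the adipocyte markers were high. The acid responses on HFD minus those on LFD gave 0 of 7 genes in each of 3 comparisons, with 0% of all genes. At an unadjusted p under 0.05 there were 0 of 7 as well, against 0.844% (acetate), 12.8% (propionate) and 2.27% (butyrate) of all genes. The value for propionate was -0.39 ± 0.207 for Srebf1 and -0.28 ± 0.148 for Acaca (adjusted p = 0.429 and 0.419). Averaged over the diets, each acid against saline also gave 0 of 7 genes and 0% of all genes. Values ran from -0.39 (Thrsp, propionate) to 0.026 (Acaca, propionate), 0 of 7 at an unadjusted p under 0.05 against 3.21% (acetate), 2.67% (propionate) and 4.45% (butyrate) of all genes.

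Acetate, propionate and butyrate are linear acids of increasing chain length, given here at the same dose and time. The 3 pairs of acids were compared on each diet, 6 comparisons for each gene. In limma 0 of 7 genes passed in any, and 0% of all genes did except for butyrate against propionate on HFD (0.0625%). The lowest unadjusted p was for Acaca in butyrate against propionate on LFD. There Acaca was 8.65, 8.43, 8.32 and 8.32 under butyrate and 8.75, 8.63, 8.80 and 8.71 under propionate, overlapping through a single butyrate array. The difference was -0.29 (95% interval -0.51 to -0.078, limma's adjusted p = 0.999). Srebf1 stood at -0.35 (-0.65 to -0.048, adjusted p = 0.999) in the same pair, so 2 of 7 reached an unadjusted p under 0.05, against 3.62% of all genes.

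On HFD, Acly was 9.77, 9.61, 9.56 and 9.41 under butyrate, 9.41, 9.36, 9.47 and 9.12 under propionate and 9.47, 9.42, 9.26 and 9.28 under acetate. Most butyrate arrays lay above both other acids, and 1 overlapped with each. The difference was 0.25 (0.023 to 0.48, adjusted p = 0.239) against propionate and 0.23 (0.0075 to 0.46, adjusted p = 0.996) against acetate, 1 of 7 genes at an unadjusted p under 0.05 in each, against 17.3% and 3.64% of all genes. The other 3 pairs had 0 of 7, against 3.7% (propionate and acetate, LFD), 1.4% (butyrate and acetate, LFD) and 13.2% (propionate and acetate, HFD). For propionate against acetate, intervals on HFD were -0.23 to 0.39 for Fasn and -0.23 to 0.37 for Srebf1. On LFD they were -0.16 to 0.51 and -0.027 to 0.62. Intervals of this width do not show that the acids act alike.

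The order of the 8 group means differed by gene. Propionate LFD was the highest group for Fasn (9.90 ± 0.0514, SD, n = 4), Acaca (8.72 ± 0.0736), Srebf1 (8.25 ± 0.0344) and Acly (9.64 ± 0.136), and saline LFD for Me1 (6.29 ± 0.389) and Thrsp (4.69 ± 0.849). The lowest was acetate HFD for Fasn (9.31 ± 0.170), Acaca (8.18 ± 0.135) and Srebf1 (7.62 ± 0.109), and propionate HFD for Acly (9.34 ± 0.156), Me1 (5.59 ± 0.386) and Thrsp (3.75 ± 0.174). For Fasn, Srebf1, Me1 and Pnpla3 no neighbours in this order differed by more than the pooled SD of the groups. Gaps beyond it were those of Acaca between propionate LFD and saline LFD, of Acly between saline HFD and acetate HFD, and of Thrsp between saline LFD and butyrate LFD. Pnpla3 had the flattest order, from 5.12 ± 0.252 on propionate HFD to 4.88 ± 0.264 on butyrate HFD.

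Across the 31 arrays the closest links were among Fasn, Srebf1, Acaca and Acly. Fasn and Srebf1 correlated at r = 0.911, Acaca and Srebf1 at 0.820, Fasn and Acaca at 0.773, Acly and Srebf1 at 0.761 and Fasn and Acly at 0.749. Within groups, on deviations from the group means, r was 0.881, 0.636, 0.546, 0.660 and 0.631 for the same pairs. The remaining pair of the 4, Acaca and Acly, was lower, at 0.585 (0.348 within groups). Of the other members, Me1 and Thrsp correlated at r = 0.747 (0.611 within groups) and Me1 and Pnpla3 at 0.481 (0.543). Me1 and Thrsp were not fully separate from the first 4 over the arrays, whereas Pnpla3 had no r above 0.081 with them. Me1 correlated with Fasn at 0.495, Acaca at 0.477 and Srebf1 at 0.336 (0.210, 0.268 and 0.094 within groups). Thrsp did so with Acaca at 0.431, Fasn at 0.375, Srebf1 at 0.256 and Acly at 0.132 (0.339, 0.096, 0.038 and -0.14 within groups). Acly correlated with Me1 at 0.016 (-0.40 within groups) and with Pnpla3 at -0.38 (-0.47 within groups), and Pnpla3 lay between -0.11 and 0.081 with the other 3. The arrays behind each r share their libraries and their tissue makeup, so these values are a description.

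**Figure D3:**
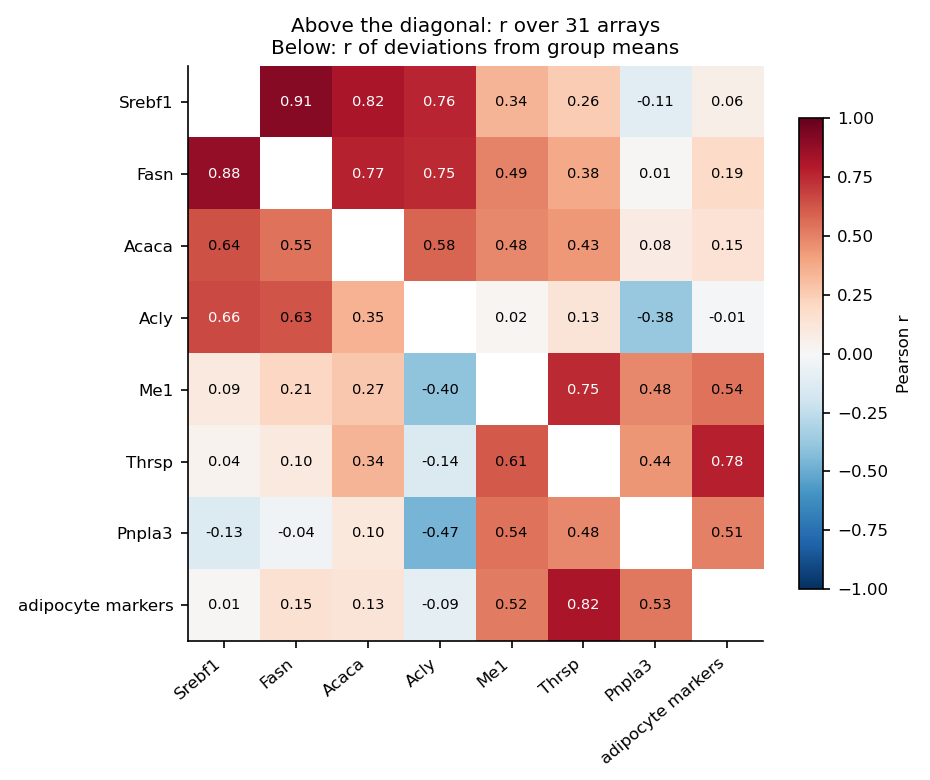
Pearson r between the genes and with the mean of 7 adipocyte markers; above the diagonal over 31 arrays, below it on deviations from group means. Srebf1, Fasn, Acaca and Acly form a block (0.58 to 0.91 above the diagonal), and Thrsp has its highest r with the adipocyte markers (0.78).

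Adipocytes also express lipogenic genes, so each member was set against the adipocyte marker mean over the 31 arrays, 7 relations in all. Thrsp had r = 0.781 (permutation p = 1e-05, the smallest that 100000 permutations can give; adjusted 7e-05) and Spearman's rho = 0.553 (permutation p = 0.0016, adjusted 0.00598). Its r was 0.611 without the 2 arrays farthest from the median marker mean and 0.817 within groups. Pnpla3 had r = 0.505 (permutation p = 0.00344, adjusted 0.00803) and rho = 0.551 (permutation p = 0.00171, adjusted 0.00598), with r = 0.419 without those 2 arrays. Me1 had r = 0.539 (permutation p = 0.00189, adjusted 0.00661) but rho = 0.261 (permutation p = 0.155, adjusted 0.363), and r = 0.240 without the 2 arrays, so that the relation over all arrays rests largely on them. On deviations from group means r was 0.518 for Me1 (permutation p = 0.028, adjusted 0.0654) and 0.528 for Pnpla3 (permutation p = 0.00591, adjusted 0.0207). Fasn (0.193), Acaca (0.146), Srebf1 (0.061) and Acly (-0.015) had adjusted permutation p-values of 0.523 to 0.937. For Thrsp the relation is a description, because this gene passed the filter only through 4 LFD arrays. Among these were butyrate LFD 2, saline LFD 1 and saline LFD 2, the arrays highest in adipocyte markers. Its permutation p-values are therefore no support for a link.

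With the adipocyte marker mean as a covariate, the diet difference was -0.34 for Fasn (adjusted p = 0.0300), -0.27 for Acaca (0.0260), -0.40 for Me1 (0.0388) and -0.27 for Srebf1 (0.0670). Fasn, Acaca and Me1 thus passed in this limma fit and Srebf1 did not. Thrsp stood at -0.31 (adjusted p = 0.0552). The 7 adipocyte markers themselves were between -0.37 and 0.10 for diet, and 0 of 7 passed. The part of the low distal colon markers on the same arrays was not tested.

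**Figure D4:**
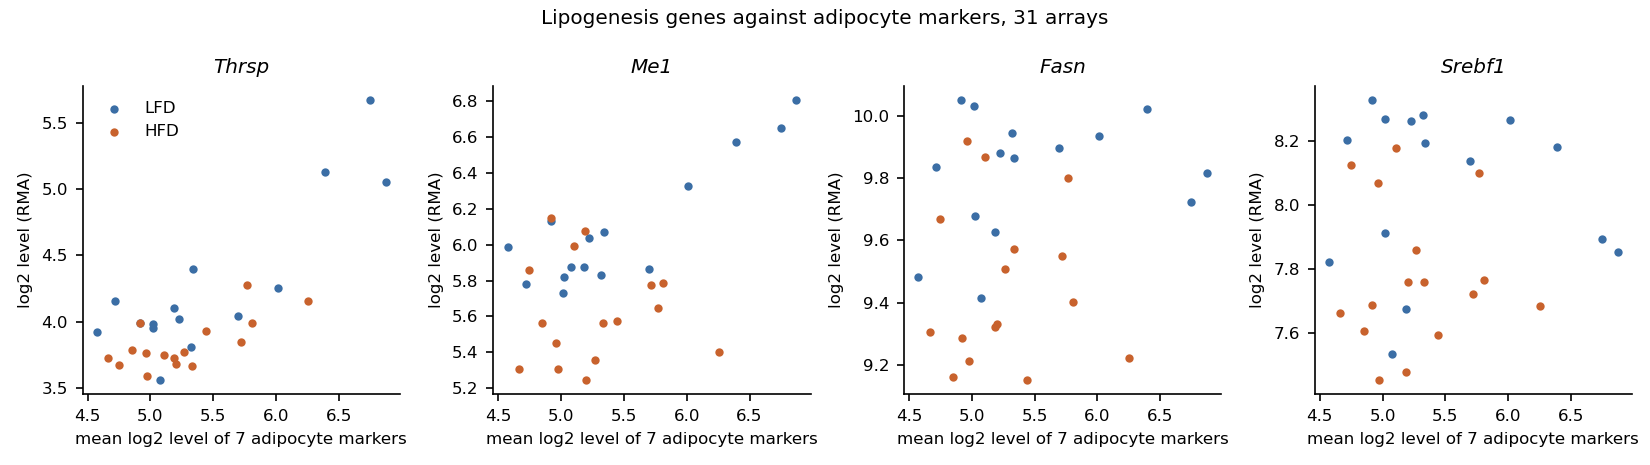
Log2 level of 4 genes (y axes) against the mean log2 level of 7 adipocyte markers (x axes) on 31 arrays, LFD blue and HFD orange. Thrsp and Me1 are highest on the 3 arrays with the most adipocyte transcript (6.39 to 6.87), whereas Fasn (9.72 to 10.02) and Srebf1 (7.85 to 8.18) on those arrays lie within the range of the other arrays.

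The genes most like the pathway were taken by Pearson r over 31 arrays. Closest to the mean of the 7 standardised genes were Xpnpep1 (0.877), Scd1 (0.866), Suox (0.849), Hyou1 (0.849), Aacs (0.847), Sulf2, Sgk2, Trim40, Lss and Letm1 (0.817). Scd1 is the stearoyl-CoA desaturase, Aacs activates acetoacetate for lipid synthesis, and Lss is a cholesterol enzyme. Of these genes only Scd1 is in the pathway lists below, and the closest, Xpnpep1, is not. On deviations from group means their r with the mean ran from 0.646 (Lss) to 0.807 (Suox). Closest to Fasn were Aacs (0.939), Sec13 and Bop1, to Acaca Fads1 (0.893), Elovl5 and Uggt1, and to Acly Scd2 (0.875), Ywhab and Parp3. Srebf1 was most like Lman2 (0.902), Scd2 and Mvd. Thrsp was most like Adipoq (0.831), Cidec and Fabp4, all fat cell genes, Me1 like Paqr8 (0.858), Sptssb and Myl7, and Pnpla3 like Homer2 (0.682), Gpr17 and Guca2a.

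Other genes around the pathway were read from 5 lists. Among desaturases and elongases, which add double bonds to fatty acids or lengthen them, 5 of 8 tested genes fell over all infusions, against 1.16% of all genes. They were Scd1 (-1.16 ± 0.154), Scd2 (-0.66 ± 0.136), Fads1 (-0.60 ± 0.116), Elovl5 (-0.27 ± 0.0607) and Elovl1 (-0.19 ± 0.0517), with adjusted p of at most 0.0458. The list's median was -0.25. Of 8 genes of citrate, acetyl-CoA and NADPH supply 1 fell, Pgd of the pentose phosphate pathway (-0.17 ± 0.0364, adjusted p = 0.0191), with a median of -0.065. Of 8 genes that control malonyl-CoA, among them AMP-activated kinase subunits, 1 fell, Mid1ip1, and the median was -0.011.

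Of 16 genes of SREBP-1 processing and transcriptional control 0 passed for diet, 8 lay below 0 and 8 above, and the median was 0.0061, against 0.0051 over all genes. The list holds the chaperone gene Scap, the Insig genes and the partner factors NF-Y and Sp1. Of 12 genes of glycerolipid assembly and lipid droplets 0 passed, with a median of -0.071. No test compared the lists.

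Under propionate, where 4.82% of all genes fell, the same 5 of 8 desaturases and elongases did, at -1.74 (Scd1), -1.39 (Scd2), -1.16 (Fads1), -0.44 (Elovl5) and -0.34 (Elovl1). Of the supply genes 2 of 8 fell there, the citrate carrier gene Slc25a1 (-0.38 ± 0.0981) and Pgd (-0.38 ± 0.0713). Of the glycerolipid genes 1 of 12 fell, Lpin1 (-0.87 ± 0.210). Under saline, acetate and butyrate 0 of the 52 list genes passed in limma, as did 0% of all genes. At an unadjusted p under 0.05 there were 7, 6 and 2 of 52 in that order, against 7.28%, 7.71% and 3.67% of all genes.

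**Figure D5:**
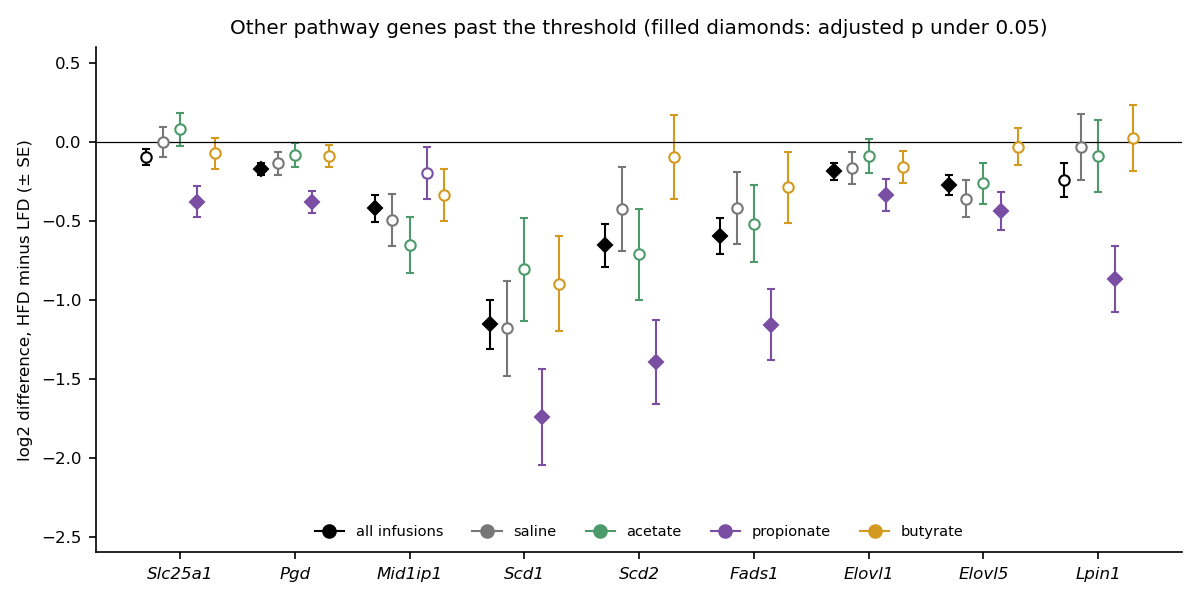
Log2 difference HFD minus LFD ± SE (y axis) of the 9 list genes that passed for diet over all infusions or under propionate; filled diamonds passed the threshold. Scd1 has the largest difference (-1.16 over all infusions, -1.74 under propionate), and Mid1ip1 passed over all infusions but not under propionate.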

How the data were processed

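RNA from 31 scrapings was hybridised to single-colour whole-transcript arrays, 1 per sample. The authors deposited log2 values made by RMA, per the submitters' processing notes. RMA corrects background, normalizes quantiles and summarises probes, so dim genes are compressed. Its version and the build behind the array are not stated in any source read here. Of 35556 probe sets, 21218 had 1 symbol in the platform annotation, 1881 several, and 12457 were not listed.

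The limma model (3.58.1, R 4.3.3) had 1 mean for each of 8 groups and an intensity trend, over genes with at least 3 arrays at an intensity of 20 (log2 4.32). The code was tested on simulated data. Permutation tests were two-sided and used numpy 2.4.6, with ranks from scipy 1.17.1. Named genes were the 7 members, list genes past the threshold, and the genes most alike (10 for their mean, 3 for each). Members and lists were chosen with earlier results of these data known. Alternatives were other filters, moderation, array weights, all probe sets, the replicate block, a covariate, the compared groups alone, and left-out arrays; leaving out the 3 arrays highest in adipocyte markers, and setting diet effects of acids against each other, were chosen after seeing the data. The number of arrays limits the precision.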

Additional observations from a re-analysis of the deposited data

Results flagged for a closer look

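Thrsp on butyrate LFD 2, at a log2 level of 5.05, lay far from the other arrays of its group (3.92 to 4.10). Its gap to the nearest array exceeded Dixon's 95% critical value for 4 samples. Of 49 gene and group combinations tested this was 1, and chance gives about 1 in 20. The same array had the highest adipocyte marker mean of the 31 (6.87), and its part in the Thrsp value was not tested beyond the correlation given above.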

How the results depend on the processing

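Over all infusions 4 members passed for diet. The count was 0 without saline LFD 1 and 2, 0 without these and butyrate LFD 2, 2 without saline HFD 1 and 2, and 2 to 6 when 1 array was left out; it was 2 without acetate HFD 1, acetate LFD 3, butyrate HFD 3, propionate HFD 3, saline HFD 1, saline HFD 3 or saline LFD 2. Fewer arrays entered these fits. Over the 12 settings other than leaving out 1 array, the count was 0 to 6. Under the single infusions 3 passed, and 0 to 3 with 1 array left out, with 2 to 4 under the other settings. The counts of 0 in the acid and interaction comparisons stayed 0 under every alternative run.

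Signs turned for values near 0. Acly under butyrate (0.012) was -0.027 with array weights and -0.048 without the 3 arrays, and -0.048 to 0.096 with 1 left out. Srebf1 under butyrate (0.0005) was -0.031, -0.017 and -0.076 to 0.12 in the same order. Pnpla3 under saline (-0.15) was 0.055 without saline LFD 1 and 2 and 0.055 without the 3 arrays. With 1 array left out, Acaca under butyrate ran from -0.11 to 0.00018 and Thrsp under acetate from -0.34 to 0.077. The cause was not tested.

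With the replicate block the counts were 4 over all infusions and 3 under the single infusions. The labels do not say whether a number marks arrays that belong together. Deviations of same-numbered arrays correlated at a mean r of 0.0408 over 105 pairs, of which 42 exceeded 0.1. For 315 pairs of other numbers the mean was -0.014, and 86 exceeded 0.1. No test compared these, so a shared batch behind the numbers was not tested.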
